A study of Mus musculus with 16 samples.

Results

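Single-strand DNA breaks were mapped by SSB-seq in mouse embryonic stem (ES) cells under the PARP inhibitor talazoparib, and the break sites of cells lacking the thymine DNA glycosylase TDG were compared with those of cells expressing it. In SSB-seq, E. coli DNA polymerase I extends free 3' ends in purified genomic DNA with digoxigenin-labelled nucleotides, and labelled fragments are pulled down with an anti-digoxigenin antibody and sequenced beside input DNA. All cells were of strain C57BL/6JRj and were kept in 2i medium with LIF and no serum, no feeder cells being named. The labels' protocol describes a Tdg minigene that is excised with 4-OHT (5 uM for 2 h). The labels call the 2 genotypes wild type (WT) and "KO; Tdg-depleted" (KO), and do not say whether WT cells also received 4-OHT, nor how many clones of each genotype were used. Both genotypes received 5 nM talazoparib for 24 h. Each genotype had 3 immunoprecipitated (IP) libraries and 1 input library, so 8 of the series' 16 libraries are compared, and the other 8 are the same genotypes in DMSO. The authors called 1 peak list per condition on the IP libraries together. The values therefore have no spread between replicates, no test between the conditions was possible, and each difference below is a description of 2 pooled lists. The genotypes were sequenced on 2 flow cells each, none shared, so genotype and flow cell cannot be told apart.

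On chromosomes 1 to 19 the KO talazoparib list held 23559 peaks over 19.1 Mb and the WT talazoparib list 15343 peaks over 11.3 Mb, out of 102165 peaks in all 4 lists. Peaks of the 2 lists that share at least 1 bp are called shared, and the others KO-only or WT-only. Peak calls do not measure RNA, so they cannot check the cell type. The Tdg gene itself had no peak within 5 kb in either talazoparib list, and 2 KO peaks and 1 WT peak in DMSO. Such calls do not measure whether TDG is present, so the genotype labels stay unchecked.

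TDG removes thymine from G:T mismatches and removes the oxidised cytosines 5-formylcytosine and 5-carboxylcytosine that TET enzymes make from 5-methylcytosine. The abasic site left behind is cut by APEX1, and the resulting single-strand break is filled and sealed by DNA polymerase beta, XRCC1 and DNA ligase III. PARP1 and PARP2 detect such breaks, and talazoparib blocks their catalytic activity and traps them on DNA, so repair intermediates can persist. In ES cells, oxidation of 5-methylcytosine and its repair take place at enhancers and at CpG-rich promoters, and TDG is required for normal embryonic development.

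The stretches below are single examples and do not stand for the lists. Each is centred on a peak and given on the plus strand of mm10 (GRCm38.p6 reference), with CpG dinucleotides in capitals. They come from the leading peaks of each kind described further on, and none holds an annotated exon base.
KO-only, intron of Nol4l, chr2:153525966-153526166: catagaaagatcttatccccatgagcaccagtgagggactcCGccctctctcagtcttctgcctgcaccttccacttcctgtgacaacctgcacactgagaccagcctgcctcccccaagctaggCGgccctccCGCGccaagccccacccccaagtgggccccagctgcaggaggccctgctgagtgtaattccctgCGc
WT-only, intron of Idh3a, chr9:54586606-54586806: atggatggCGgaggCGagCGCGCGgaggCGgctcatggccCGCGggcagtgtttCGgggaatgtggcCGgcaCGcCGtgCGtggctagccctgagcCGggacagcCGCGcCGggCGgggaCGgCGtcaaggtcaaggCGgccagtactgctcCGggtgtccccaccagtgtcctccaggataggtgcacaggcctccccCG
Shared, ranked higher in KO, intron of Soga1, chr2:157058846-157059046: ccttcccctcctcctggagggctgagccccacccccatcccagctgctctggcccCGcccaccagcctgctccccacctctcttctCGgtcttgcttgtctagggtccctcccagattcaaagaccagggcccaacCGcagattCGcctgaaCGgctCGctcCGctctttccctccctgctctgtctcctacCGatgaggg
Shared, ranked higher in WT, intergenic, nearest gene Magi1, chr6:94320546-94320746: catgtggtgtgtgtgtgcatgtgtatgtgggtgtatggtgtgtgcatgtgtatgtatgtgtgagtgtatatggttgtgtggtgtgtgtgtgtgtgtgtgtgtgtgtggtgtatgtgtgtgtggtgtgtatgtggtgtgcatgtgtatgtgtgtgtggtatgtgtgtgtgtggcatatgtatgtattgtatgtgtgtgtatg
The Nol4l and Soga1 windows are GC-rich (62.7% and 65.2%) with 5 and 8 CpGs. The Idh3a window, 372 bp from a transcription start, is part of a CpG-dense stretch with 23 CpGs and 72.6% G or C. The Idh3a peak had 8.62 CpG per 100 bp, against a median of 1.6 over all WT-only peaks. The window nearest Magi1 is a TG repeat with no CpG.

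Many peaks of each talazoparib list were not shared with the other genotype's list. Of the KO peaks, 15930 (67.6%, Wilson 95% interval 67 to 68.2) touched no WT peak, and of the WT peaks, 7672 (50.0%, 49.2 to 50.8) touched no KO peak; these intervals cover counting error only. The remaining 7629 KO peaks (32.4%) and 7671 WT peaks (50.0%) overlapped, and 7522 of these formed unique pairs in which each peak met a single peak of the other list. Sites of a single list often lay near the other list's peaks: 21.8% of KO-only and 29.6% of WT-only peaks were within 5 kb of one. Lists of the same genotype also overlapped only in part. The KO DMSO list held 58.8% of all KO talazoparib peaks, and the WT DMSO list 47.5%. The WT DMSO list held 52.2% of all WT talazoparib peaks, and the KO DMSO list 60.4%. The part of genotype in the unshared peaks was not tested. The larger KO-only count went with the longer KO list. With each list cut to its 15343 best-scoring peaks, 8798 KO peaks (57.3%) and 8759 WT peaks (57.1%) were unshared. With a fold over input of at least 6 the order turned, with 5940 KO-only peaks (82.5% of those left) and 8597 WT-only peaks (87.1%).

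Sharing followed tag density, the authors' normalized tag count (IP tags in the peak per 10000000 IP tags) per kb. In the lowest of 10 equal classes of the KO list 3.95% of peaks were shared, and in the highest 79.8%. The WT list ran from 14.9% to 92.4%. At a class median of 11.9 tags per kb, 72.9% of WT peaks and 28.3% of KO peaks were shared. That density is class 8 of the WT list but class 6 of the KO list, and in class 8 of the KO list 55.0% were shared. The KO list is longer (23559 against 15343 peaks), and its shared peaks are denser (medians of 18.1 and 10.7 tags per kb). Equal density is therefore no equal footing, and the part of length and scale in this gap was not tested.

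**Figure D1:**
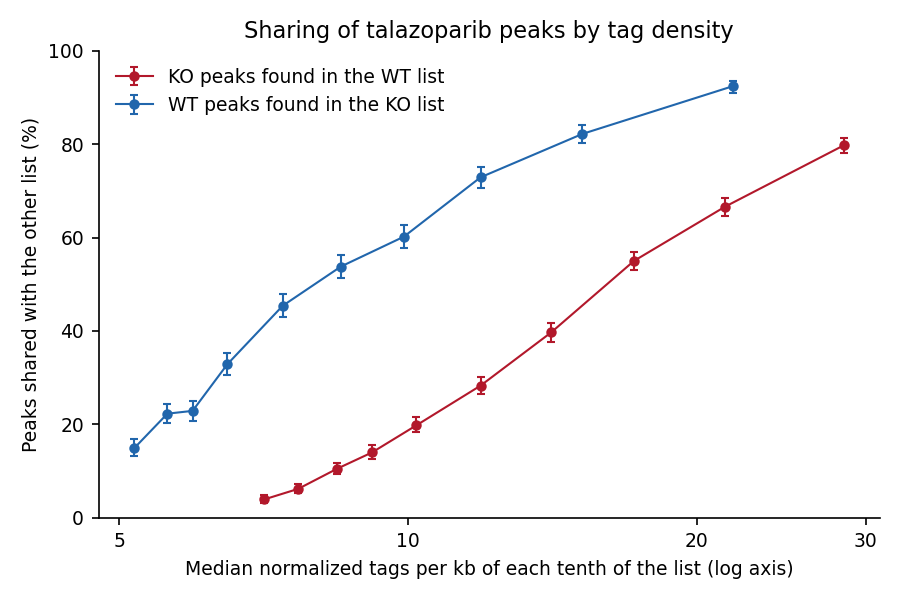
Percentage of peaks shared with the other genotype's talazoparib list, against the median normalized tags per kb of 10 equal classes of each list (log axis). Bars are Wilson 95% intervals for counting error. The KO curve climbs from 3.95% to 79.8% and the WT curve from 14.9% to 92.4%.

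Shared peaks were longer, denser and richer in CpG than peaks of a single list. Median length was 1005 bp for shared and 500 bp for KO-only peaks in the KO list, and 777 bp against 500 bp for WT-only peaks in the WT list. Shared KO peaks had a median of 18.1 normalized tags per kb, or 122 IP tags, and KO-only peaks 9.34 per kb, or 37.5 IP tags. In the WT list the shared peaks had 10.7 per kb and 73.0 IP tags, and WT-only peaks 6.32 per kb and 29.5 IP tags. CpG content was 5.63 per 100 bp at shared and 1.80 at KO-only peaks (medians), and 6.05 against 1.60 in the WT list. The input differed beside these values. Input density, relative to the mean of the library over the sequenced genome, had a median of 0.892 at shared and 0.467 at KO-only peaks, and of 0.507 and 0.216 in the WT list. Fewer than 3 input tags lay under 40.9% of KO-only and 82.9% of WT-only peaks, so the authors' fold at many WT-only peaks (median 8.18) rests on fewer than 3 input tags. The part of low input in calling these peaks was not tested. When peaks under 3 input tags were left out of both lists, 11876 peaks were KO-only and 1393 WT-only.

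**Figure D2:**
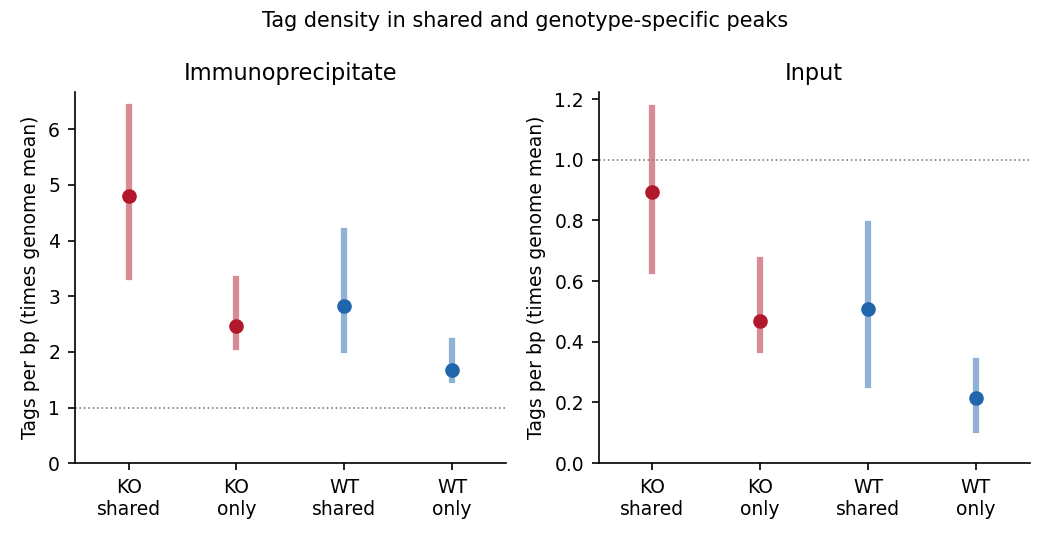
IP tag density (left) and input tag density (right), in multiples of each library's genome mean, at shared, KO-only and WT-only talazoparib peaks. Points are medians, bars run from the lower to the upper quartile over peaks, and the dotted line marks the genome mean; WT-only peaks have the lowest median in both panels (1.67 and 0.216).

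By position, shared sites were mainly promoters, taken here as 1 kb upstream to 100 bp downstream of any annotated transcript start. Promoters held 62.1% of shared KO peaks and 60.2% of shared WT peaks by centre, but 22.7% of KO-only and 20.0% of WT-only peaks. Introns held 38.1% of KO-only and 40.1% of WT-only peaks, and intergenic sequence 29.6% and 30.9%. Seen the other way, 56.8% of KO promoter peaks and 75% of WT promoter peaks were shared, against 17.6% and 31.1% of intronic peaks. Peaks with at least 6 CpG per 100 bp were shared in 63.3% (KO) and 76.4% (WT) of cases, and those with under 1 CpG per 100 bp in 15.3% and 19.5%. The median distance to the nearest transcript start was 365 bp for shared KO peaks, 14058 bp for KO-only and 15290 bp for WT-only peaks.

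The KO-only and WT-only sites differed in simple repeats, which were searched after the sequences above had been read. The TG repeat was sought as TGTGTGTGTGTGTGTGTGTG, on both strands within 501 bases around the peak centre; a match describes the letters and is no binding site. The TG repeat was present in 1110 of 7672 WT-only peaks (14.5%) and in 654 of 15930 KO-only peaks (4.1%). It was present in 3.15% of shared KO peaks and in 4.90% of all windows of that length on chromosomes 1 to 19. The WT-only peaks with the repeat had a median input of 1.00 tag, and 87.7% had fewer than 3; among the 1311 WT-only peaks with at least 3 input tags, 136 (10.4%) held it, against 267 of 9408 (2.84%) KO-only peaks. Of the WT-only peaks with the repeat, 18% were found in the WT DMSO list and 9.10% in the KO DMSO list, while those without it were found in 29.2% and 38.5%. Over whole DMSO lists the repeat was in 4.21% of WT and 2.17% of KO peaks.

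Both kinds of site were also looked up in the DMSO lists. Of the KO-only talazoparib peaks, 45.3% were present in the KO DMSO list and 33.2% in the WT DMSO list, and 44.8% in neither. Thus 5284 sites without a WT talazoparib peak did have a WT peak in DMSO. Of the WT-only peaks, 27.6% were present in the WT DMSO list, 34.3% (2629) in the KO DMSO list and 56.1% in neither. Among KO-only peaks found in a single DMSO list, 3513 (22.1%) were found in KO and 1583 (9.94%) in WT. The WT-only peaks leaned the same way, 1256 (16.4%) in KO and 742 (9.67%) in WT, and the KO DMSO list is the longer, with 35020 peaks against 28243. Of shared KO peaks, 86.9% were in the KO DMSO list and 77.5% in the WT DMSO list.

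**Figure D3:**
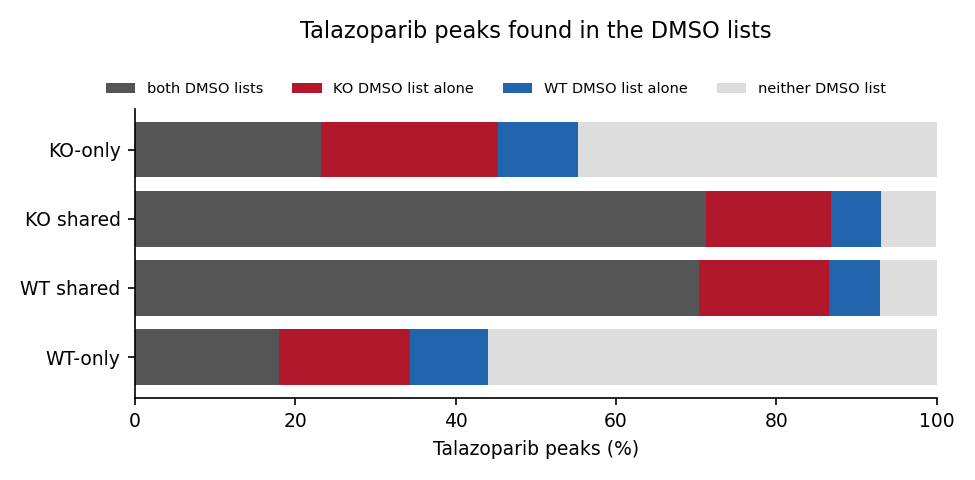
Share of talazoparib peaks of each kind (rows) that overlap a peak in both DMSO lists, in a single one, or in neither (percent of peaks). Neither DMSO list held 44.8% of KO-only and 56.1% of WT-only peaks, against 6.87% of shared KO peaks.

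The densest KO-only sites were also dense in input. Sites were ranked by tags per kb among those more than 5 kb from any peak of the other list with at least 3 input tags, and 10 were taken each way. The first, chr12:3109560-3110814, lies in intergenic sequence 136614 bp from Rab10 and had 10319.5 IP tags (exact Poisson 95% interval 10121 to 10521, counting error only) and 958 input tags, 71.4 times the input mean. It is in neither DMSO list. The site at chr17:39846595-39847220, with 3852 IP tags and an input density of 54.5, overlaps an annotated rRNA locus (CT010467.1) and the long noncoding RNAs Gm42418 and AY036118. Others lay in introns of Cmss1 and Filip1l, of Mdga2, which encodes a neuronal adhesion protein, and of Gphn, the gene of the inhibitory-synapse scaffold gephyrin. Input density ran from 10.2 to 71.4 over the 10 sites, 5 of which were in the KO DMSO list and 2 in the WT DMSO list.

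With sites of input density of 2 or more left out, a rule added after these values were seen, the KO-only sites became promoters. The first was the shared promoter region of Mettl23, Srsf2 and Mfsd11, where Srsf2 encodes a splicing factor: chr11:116852721-116854129 had 387.5 IP tags (350 to 428), 41.4 normalized tags per kb and 27.5 input tags. Birc6, which encodes a large inhibitor of apoptosis, had 40.8 per kb at its promoter, and Map3k14, the kinase NIK of the non-canonical NF-kB pathway, 39.1 per kb. The Nol4l intron shown above had 38.4 per kb. The promoter between Nsun2, an RNA cytosine methyltransferase, and Srd5a1 had 38.3 per kb, with 13.5 input tags and the highest fold of the 10, 11.26. Srebf1, the sterol-responsive transcription factor, had 36.6 per kb, Pwwp2a 36.7, and the promoter of Cmc2 and Cenpn, a centromere protein gene, 36.5. Of these 10 sites 8 were promoters, and 8 were found in the KO DMSO list and 9 in the WT DMSO list. At those 9 sites WT cells had a call in DMSO and none under talazoparib.

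The densest WT-only sites were less dense than the KO-only ones under either rule, but the 2 sets are not on equal terms. By the first rule the 10 KO-only sites were the top of 7205 sites and the 10 WT-only sites the top of 907. At shared pairs, too, IP density was higher in KO at 91.7% of pairs. By the first rule the 10 sites ran from 23.1 to 59.0 normalized tags per kb in WT and from 180.0 to 1239 in KO, and with input density under 2 from 22.9 to 29.2 in WT and from 36.5 to 41.4 in KO. By the first rule the leading WT-only site, at the promoter of Mrpl45, a mitochondrial ribosomal protein gene (chr11:97315350-97315981), had 59.0 normalized tags per kb, 312 IP tags (278 to 349) and 12.5 input tags. The Idh3a site, in an intron of the gene for a subunit of mitochondrial isocitrate dehydrogenase, had 32.2 per kb. Next came the promoter of Yjefn3 and Tssk6 with 31.4, Peak1 with 29.2, Gab1, an adaptor of receptor tyrosine kinases, with 26.7, Ivns1abp with 24.1, Mrps28 with 23.4 and the promoter of Pxmp2 and Pole with 23.1, where Pole encodes the catalytic subunit of DNA polymerase epsilon. Input density over the 10 sites ran from 1.03 to 2.77. In DMSO, 8 of the 10 were in the WT list and 9 in the KO list.

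At the level of genes, 12576 of 20780 protein-coding genes had a KO peak inside the gene or up to 5 kb from it, and 10510 had a WT peak. Both lists marked 9204 genes (44.3%), the KO list alone 3372 (16.2% of all genes) and the WT list alone 1306 (6.28%). Of genes with a KO peak 26.8% had none in WT, and of genes with a WT peak 12.4% had none in KO. Most rested on 1 peak: 70.9% of the genes marked by KO alone and 84.6% of those marked by WT alone. With equal numbers of best-scoring peaks the counts were 2604 and 2114, and with a fold of at least 6 they turned to 2502 and 3912. Many of these genes were marked in DMSO by both genotypes, as 72.8% of the genes marked by KO alone had a WT DMSO peak and 77.0% of those marked by WT alone had a KO DMSO peak.

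Among genes without a WT talazoparib peak, Tspan5, a tetraspanin that regulates the protease ADAM10, and Wwc1, the Hippo pathway scaffold KIBRA, had the most KO peaks, with 8 each. In DMSO, Tspan5 had 8 KO and 6 WT peaks, and Wwc1 9 and 5. Sema4b (a semaphorin), Tbc1d16 (a Rab GTPase-activating protein) and Ntrk2 (the BDNF receptor TrkB) each had 7 KO peaks under talazoparib. Their DMSO counts were 5 KO and 4 WT for Sema4b, 14 and 10 for Tbc1d16, and 6 and 8 for Ntrk2. The synaptic adhesion gene Nrxn2, the sorting nexin Snx30, Afmid of tryptophan breakdown, Lemd1 and the ephrin receptor Epha4 had 6 each. All 10 of these genes had at least 2 WT peaks in DMSO.

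Among genes without a KO talazoparib peak, none had more than 4 WT peaks. Serping1, which encodes the C1 inhibitor of complement, had 4 WT peaks with 1 KO and 1 WT peak in DMSO. Alpk3, an alpha kinase of heart muscle, Myrfl, Xpot, the exporter of tRNA from the nucleus, and Slc44a3, of the choline-transporter-like family, also had 4. Alpk3 had 2 KO and 6 WT peaks in DMSO, and Xpot 4 and 3. Pxmp2, of the peroxisomal membrane, Scaf4, which binds the tail of RNA polymerase II, Tmem30b, Nxph4 and Ptdss2, a phosphatidylserine synthase, had 3 each, and all but Tmem30b also had WT DMSO peaks. Where both lists had peaks, the differences included Celsr1, a planar polarity cadherin (13 KO and 2 WT peaks), Aff1, of the super elongation complex (13 and 3), Nav2 (13 and 3), Zmynd8, a chromatin reader (11 and 1), Eva1c (1 and 7) and the neuronal kinesin Kif5a (2 and 7). In DMSO Zmynd8 had 23 KO and 16 WT peaks, and Eva1c 8 and 4. Over all genes, 6828 (32.9%) had more peaks in KO and 2473 (11.9%) more in WT.

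Shared sites kept a similar order in both genotypes. Over the 7522 unique pairs, tags per kb had a Spearman rho of 0.737, a description over sites of 2 pooled libraries that share sequence composition and mappability. Percentile ranks (0 lowest, 100 highest, within the pairs) differed by less than 10 points at 40.2% of pairs, and the quartiles of KO minus WT were -13.1 and 13. The KO rank was at least 25 points higher at 868 pairs (11.5%) and the WT rank at 889 (11.8%). Levels were higher in KO at most pairs: the IP density was 4.8 times the genome mean in KO and 2.83 in WT (medians), with a median KO to WT ratio of 1.56 and a higher KO value at 91.7% of pairs. Input density moved with it, at 0.891 and 0.505, with a median ratio of 1.74 and a higher KO value at 84.1% of pairs. The part of the input in the IP difference was not tested. Shared peaks reached 432 normalized tags per kb in KO and 542 in WT. Among pairs with an input density under 2 in both lists, a limit set after the values were seen, the 10 highest in both were at promoters, such as those of Pip5k1c and Cactin (58.8 normalized tags per kb in KO and 48.6 in WT), Wrb (62.1 and 43.7), the RNA demethylase Alkbh5 (47.7 and 49.6) and the kinase Gsk3b (48.9 and 36.9).

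**Figure D4:**
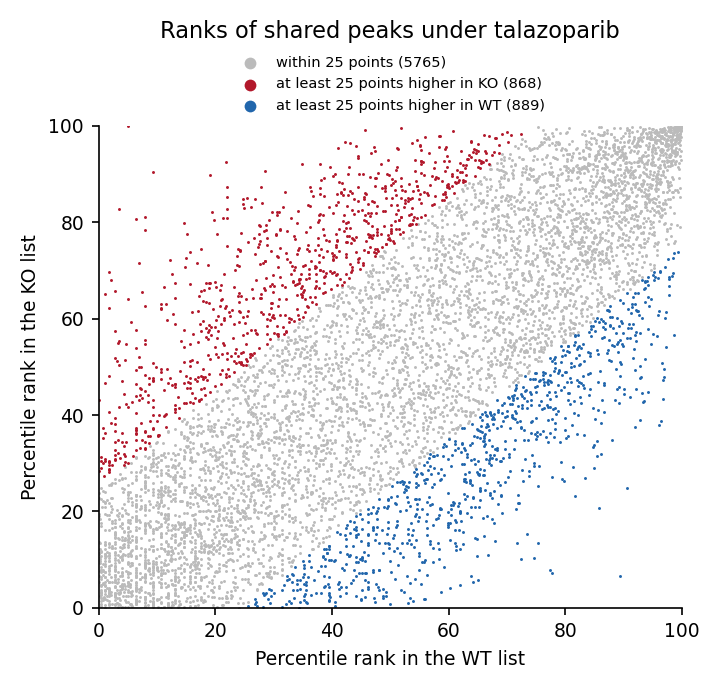
Percentile rank of normalized tags per kb in the KO list (vertical) against the WT list (horizontal) for 7522 unique pairs of overlapping peaks, each a point. Red points (868) rank at least 25 points higher in KO and blue points (889) at least 25 points higher in WT; the grey band between them holds the rest.

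The rank shift varied with sequence and input. Across pairs, the KO minus WT rank had a rho of -0.22 with CpG content, -0.20 with GC content, 0.32 with KO input density and -0.36 with WT input density, given as descriptions. Promoter pairs were at least 25 points higher in KO in 13.3% of cases and in WT in 11.7%, and exonic pairs in 10.4% and 14.2%. The TG repeat was present at 3 of the 868 pairs higher in KO (0.346%), at 140 of 5765 pairs in between (2.43%) and at 77 of the 889 pairs higher in WT (8.66%).

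Among the 10 pairs with the largest shift to KO, the promoter between Rpgrip1l and Fto, an RNA demethylase gene, had 30.1 normalized tags per kb in KO and 5.96 in WT, ranks of 90.4 and 9.35. At Uhrf1, which brings DNMT1 to hemimethylated DNA during replication, the promoter had 25.9 and 5.72 per kb, ranks of 80.7 and 6.34. At Trp53, the p53 gene, an intronic site 1407 bp from the gene start had 26.0 and 5.84 per kb, ranks of 81.1 and 7.89. The Soga1 intron shown above had 26.6 and 5.42. Promoters of Prune1 and Mindy1, of Lmf1, of Usmg5 and Pdcd11, and of Als2cl, and the site at Strn3 and Ap4s1, were of the same kind. At these pairs the WT peak held 0.5 to 1.5 input tags, and the KO peak 7 to 63.5; Trp53, for example, had 17.0 input tags in KO and 1.00 in WT.

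Among the 10 pairs with the largest shift to WT, the promoter of Ptpn1, the tyrosine phosphatase PTP1B, had 8.75 normalized tags per kb in KO and 21.2 in WT, ranks of 6.58 and 89.5. An intronic site of Tbca, a tubulin-folding cofactor, had 8.88 and 16.6, and one of Megf9 9.04 and 16.4. Sites at Asb8, Lrp11, the kinase gene Hipk3, Zfp697 and Npr3, a natriuretic peptide receptor gene, followed. Both remaining pairs were intergenic, nearest Magi1 and nearest Nub1. At 7 of these 10 WT peaks the input held 5.00 or more tags, and at Ptpn1 it held 2.00 tags in KO and 6.00 in WT.

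The rank differences under talazoparib were largely not those in DMSO. At 5105 sites with a peak in all 4 lists, ranks of KO and WT talazoparib had the lowest rho of the 6 pairs of lists, 0.70. It was 0.793 between the KO lists, 0.785 between the WT lists and 0.82 between the DMSO lists. Of the 669 of these sites at least 25 points higher in KO under talazoparib, 71 (10.6%) were so in DMSO and 50 (7.47%) were at least 25 points higher in WT there. Of the 685 sites higher in WT, 86 (12.6%) were higher in WT in DMSO and 38 (5.55%) in KO. Over all 5105 sites the DMSO shares were 6.93% higher in KO and 7.66% higher in WT.

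Gene groups are read against the whole genome's shares, 16.2% of genes marked by KO alone and 6.28% by WT alone. Single-strand break and base excision repair genes were mostly marked by both. Of 29 matched genes 19 had a peak in both lists, 5 (17.2%) in KO alone and 1 in WT alone, with 38 KO and 27 WT peaks in all. The 5 included the uracil glycosylase gene Smug1, the oxidised-pyrimidine glycosylase gene Nthl1, the repair scaffold gene Xrcc1 and Tdp1, which frees trapped topoisomerase I. Xrcc1 had 1 KO promoter peak, 39.3 normalized tags per kb with 25 input tags. Smug1 had 2 KO peaks, neither at its gene start. That of 17.5 per kb was at a promoter 3701 bp from the gene start, and that of 17.6 intergenic, 4481 bp from it. Each gene named here had WT peaks in DMSO, but the Xrcc1 promoter peak itself overlapped a KO DMSO peak and no WT DMSO peak. The gene marked in WT alone was Polb, the polymerase of the pathway, with an intronic peak of 9.06 per kb. Of 21 unique pairs at repair genes, 6 ranked at least 25 points higher in KO and 2 in WT, beside 11.5% and 11.8% of all pairs. Those higher in KO were the promoters of Parp2 (29.3 and 9.15 per kb, ranks of 88.8 and 38.1), Aplf, the adenine glycosylase gene Mutyh, the flap endonuclease gene Fen1, Pcna and the ligase gene Lig1. The input there was lower in WT, with 13 tags in KO and 1.5 in WT at Parp2, 10.5 and 0.5 at Aplf and 15.5 and 1.5 at Mutyh, and its part in the ranks was not tested. Those higher in WT were Lig3 (7.82 and 10.6 per kb, ranks of 2.47 and 49.3) and Parg, the enzyme that removes poly(ADP-ribose).

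Genes of DNA methylation turnover were mostly marked by both. Of 25 genes, 19 were marked by both, 5 (20.0%) by KO alone and none by WT alone, with 67 KO and 32 WT peaks, and 16 genes had more peaks in KO while none had more in WT. Over all genes 32.9% had more peaks in KO and 11.9% more in WT, with summed gene counts of 23759 KO and 15982 WT peaks. The de novo methyltransferase gene Dnmt3a had 4 KO and 0 WT peaks, Cxxc5 4 and 0, the methyl-CpG binder gene Mbd2 3 and 0, Dppa3 3 and 0, and the dioxygenase gene Tet1 6 and 2. The Dnmt3a peaks were weak, with 8.21 to 10.8 normalized tags per kb and 2.00 to 5.50 input tags, and all 4 overlapped a KO DMSO peak. Those at chr12:3825358-3826248 and chr12:3870719-3871219 also overlapped a WT DMSO peak, and Dnmt3a had 7 KO and 5 WT peaks in DMSO. In DMSO this group had 93 KO and 60 WT peaks.

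Genes of homologous recombination and the Fanconi pathway, on which cells depend under PARP inhibition, were marked by both in 20 of 31 cases, by KO alone in 6 (19.4%) and by WT alone in 3 (9.68%). The checkpoint kinase gene Chek2 had 4 KO and 0 WT peaks, Fancm 5 and 1, and Fanca 2 and 0. Chek1, Rad50 and the exonuclease gene Exo1 had 1 WT peak each and no KO peak. Of the 15 unique pairs in or within 5 kb of these genes, 2 ranked at least 25 points higher in KO, at Bard1 and near Atr. The pair near Atr lies past the 3' end of the gene, within the 5 kb flank. Another 3 ranked higher in WT, at Brca2 (14.2 and 19.2 per kb), Nbn and Rbbp8, where all pairs gave 11.5% and 11.8%. Of 19 p53-response genes, 16 were marked by both and 2 by KO alone, Bbc3 and Ccng1. Aen had 5 KO and 1 WT peaks, and the p53 inhibitor gene Mdm4 5 and 2.

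Of 25 naive pluripotency genes, 18 were marked by both, 3 by KO alone and 3 by WT alone. Sox2, a core factor, had 2 KO peaks, at the promoter 22.9 per kb with 18.5 input tags, and Sall4 also had 2. Prdm14 had 1. The WT-alone genes Nr5a2, Dppa2 and Zfp42 had peaks of 5.14 to 6.5 per kb on 0.5 to 1.5 input tags. Esrrb had 15 KO and 6 WT peaks, and Tfcp2l1 5 and 1; in DMSO these were 16 and 11, and 9 and 3. Primed epiblast genes were marked by KO alone in 5 of 14 cases (Lef1, Cdh2, Zic2, Otx2 and Fgf5) and by WT alone in none. Developmental regulators held by Polycomb were marked by both in 24 of 50 cases, by KO alone in 13 (26.0%) and by WT alone in none. Olig2, a regulator of neural precursors, had 3 KO peaks, the densest at 38.9 per kb with 21.0 input tags. At the 14 unique pairs of this group the median KO minus WT rank was -14.1, against -0.216 over all pairs, with none at least 25 points higher in KO and 4 higher in WT, among them Six2, Lhx2 and Irx3.

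Of 6 genes whose promoters are reported as TDG-dependent in mouse cells, none was marked by both. The peaks counted lie anywhere in the gene or up to 5 kb from it, not at the promoter alone, and Rarb spans 388 kb. Rarb, a retinoic acid receptor gene, had 2 KO peaks of 9.34 and 7.68 per kb, Hoxd13 1 of 11.2 and Tgfb2 1 of 11.4, while Twist2 had 1 WT peak of 8.09. They held 2.00 to 5.50 input tags. In DMSO, Tgfb2 had 2 KO and 1 WT peaks, Hoxd13 1 and 0, Twist2 1 and 1, and Rarb none. With a fold over input of at least 6, none of the 6 genes had a peak in either talazoparib list. Hoxa10 and Sfrp2 had no talazoparib peak. Of 39 imprinted genes, 19 were marked by both, 11 (28.2%) by KO alone and 2, Igf2r and Slc22a2, by WT alone. Slc38a4 had 5 KO and 0 WT peaks, and Grb10, a growth-limiting adaptor gene, 4 and 0. Germline genes silenced by promoter methylation were marked by KO alone in 7 of 21 cases (33.3%), by both in 5 and by WT alone in none; Brdt, a testis bromodomain gene, had 2 KO peaks and 0 WT peaks.

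Ribosomal protein genes were marked by both in 57 of 79 cases, by KO alone in 15 (19%) and by WT alone in 3 (Rps16, Rpl8 and Rpl6). Their 55 unique pairs had a median KO minus WT rank of 7.73. Of these pairs 13 ranked at least 25 points higher in KO and 1, Rplp2, higher in WT, where all pairs gave 11.5% and 11.8%. Rps18 had 35.6 and 9.66 per kb (ranks of 96.7 and 42.2). The pair counted for Rpl36 had 27.7 and 7.29 (85.2 and 22.0). That pair and the Rplp2 pair lie upstream of the gene named, within the 5 kb flank and not at its own promoter. At Rps18 the input held 13.5 tags in KO and 4.00 in WT, and at the pair upstream of Rpl36 13 and 4.00. Replication-dependent histone genes, many of which share a peak with a neighbour in their clusters, were marked by both in 44 of 67 cases, by KO alone in 18 (26.9%) and by WT alone in 2, Hist1h1e and Hist1h1b. Very long late-replicating genes of common fragile sites were marked by both in 16 of 25 cases and by KO alone in 6, among them Immp2l, Lsamp and Cntnap2; Auts2 had 9 KO and 6 WT peaks, and Magi2 2 and 5.

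**Figure D5:**
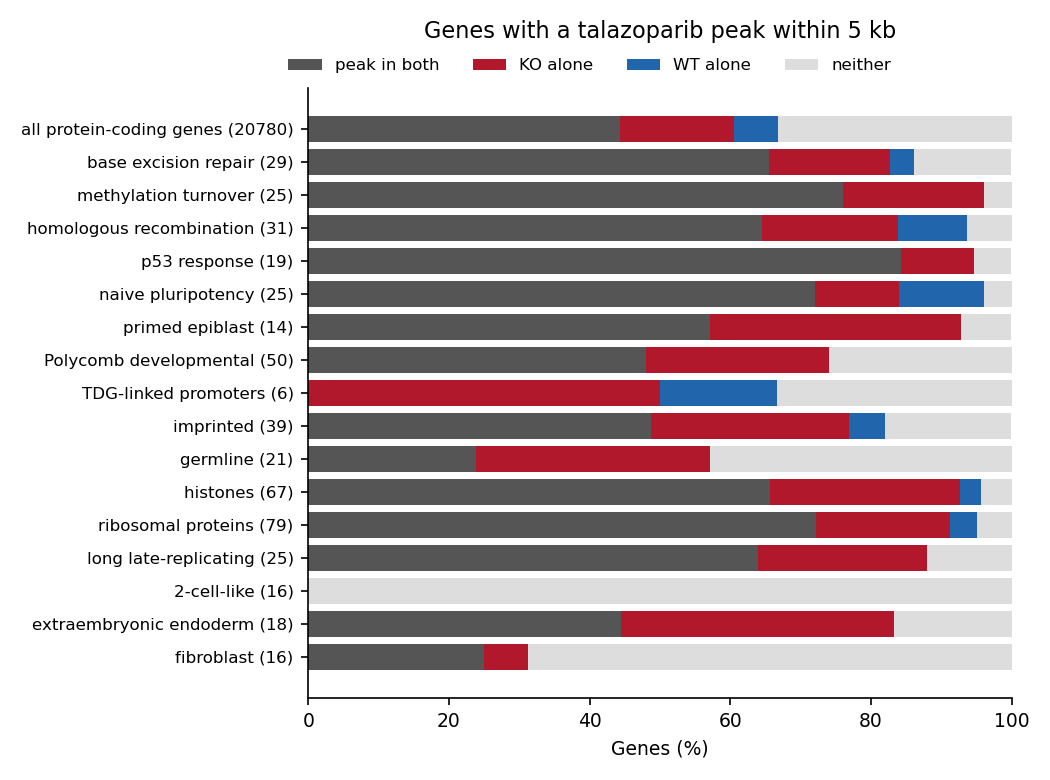
Share of genes (percent, with the number matched in brackets) that have a talazoparib peak inside the gene or up to 5 kb from it in both lists, in the KO list alone, in the WT list alone or in neither, for each gene group and for all 20780 protein-coding genes. KO alone marks 16.2% of all genes, and 17.2% of repair genes.

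The direction of these group counts depended on how peaks were chosen. With equal numbers of best-scoring peaks, the KO-alone and WT-alone counts were 5 and 2 for repair genes, 5 and 1 for methylation turnover, 10 and 2 for Polycomb targets, 9 and 2 for imprinted genes and 14 and 5 for ribosomal protein genes, but 1 and 2 for the p53 response and 2 and 4 for naive pluripotency. The counts over all 20780 genes in that setting were 2604 and 2114. With a fold over input of at least 6, the group counts were 6 and 4 for repair, 7 and 5 for methylation turnover, 5 and 6 for homologous recombination, 0 and 4 for the p53 response, 3 and 8 for naive pluripotency, 6 and 11 for Polycomb targets, 1 and 3 for germline genes, 5 and 5 for imprinted genes, 2 and 2 for primed epiblast genes and 19 and 18 for ribosomal protein genes. Over all genes the balance also turned to WT in that setting, with counts of 2502 and 3912. With at least 3 input tags the group counts were 8 and 1 for repair, 13 and 0 for methylation turnover, 11 and 3 for homologous recombination, 3 and 2 for the p53 response, 7 and 0 for naive pluripotency, 22 and 1 for Polycomb targets, 11 and 2 for imprinted genes, 13 and 0 for late-replicating genes and 22 and 1 for ribosomal protein genes, beside 5287 and 598 over all genes. Late-replicating genes had 4 and 3 with equal numbers of best-scoring peaks, and 7 and 7 with a fold of at least 6. Histone genes had 15 and 2 with equal numbers, 14 and 12 with that fold, and 18 and 3 with at least 3 input tags.

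Genes that mark other cell types were also read. Of 18 extraembryonic endoderm genes 8 were marked by both, 7 (38.9%) by KO alone and none by WT alone, beside 16.2% and 6.28% of all genes. These genes are long, with a median of 60084 bp against 17636 bp over all genes. In DMSO they had 40 KO and 36 WT peaks. With a fold over input of at least 6, 2 were marked by KO alone and 2 by WT alone. Of 16 fibroblast genes 4 were marked by both and 1, Loxl1, by KO alone, and the 16 genes of the 2-cell-like state had no peak in any of the 4 lists. Their part in the results was not tested.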

How the data were processed

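The 4 groups of libraries were used, IP and input of each genotype under talazoparib, with the DMSO groups for reference. Tools named in the submitters' processing notes are HOMER 4.11, Bowtie2 2.3.4.2, R 3.6 and Picard 2.9.2, with the build mm10 and no settings. Per the file headers, the 4 deposited tables are HOMER findPeaks lists, each pooling the IP libraries of a condition. The authors' normalized tag count is a signal, IP tags per 10000000, and the deposited input column is a signal in steps of 0.5 tags. The authors' fold is a ratio, scaled IP over input tags, at least 4.00 in every list and recomputed within 1% for 100% of peaks. The deposited p-value of each peak (highest 8.32e-05) was not used, and the authors' score ranked peaks within a list. A further deposited column of another unit holds IP tags scaled to the input total.

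IP totals, from the step of low values, were 66.4 M tags for KO and 83.8 M for WT under talazoparib, and input totals 28.3 and 24.5 M. Densities are tags per bp relative to each total over 2648 Mb. Peaks were joined at 1 bp or more, annotated with GENCODE M21 protein-coding genes (20780 symbols on chromosomes 1 to 19) and ranked by normalized tags per kb, with pandas 2.3.3 and pysam 0.24.0 in Python 3.11.15. The overlap and gene-count steps were tested on simulated intervals. Up to 10 sites, genes or pairs each way were named by tags per kb, peak number or rank difference, and up to 4 members per gene list by difference in peak number, with single exceptions picked for their values. The gene groups and named members were chosen with earlier results of these data known. Sites with input density under 2 were added after the values were seen. Starts are printed as deposited, with 0 or 1 as the first base not stated. Intervals are 95% and cover counting error only. Some sites and genes that the rules select are not reported here. Peaks on other chromosomes stand in the closing section.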

Additional observations from a re-analysis of the deposited data

Results flagged for a closer look

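Peaks outside chromosomes 1 to 19 entered no comparison above, and both talazoparib lists held some. On chromosome X the KO list had 385 peaks and the WT list 182. On chromosome Y there were 2 KO peaks and 1 WT peak, and on the mitochondrial genome 2 in each list. Unplaced or unlocalized contigs held 35 KO and 16 WT peaks. The highest normalized tag count on these contigs was 162362 in KO and 7103 in WT, and on the mitochondrial genome 19338 in KO and 145 in WT, while the median fold on the mitochondrial genome was 5.62 and 4.96.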

How the results depend on the processing

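No paired analysis was possible because every deposited value pools the libraries of a condition, and for the same reason no replicate could be left out. Of 56 recomputed values 37 stayed within the margin set (for counts, a factor of 1.5). With a fold of at least 6 there were 5940 KO-only peaks, 1260 unique pairs, a rho of 0.836, 3912 genes in WT alone, and 796 KO-only peaks found in the WT DMSO list. With equal numbers of best-scoring peaks there were 8798 KO-only peaks, a rho of 0.712, 2114 genes in WT alone and 2861 KO-only peaks found in the WT DMSO list. With at least 3 input tags there were 1393 WT-only peaks, 4593 unique pairs, a rho of 0.583, 5287 genes in KO alone, 598 in WT alone and 856 WT-only peaks found in the KO DMSO list. With IP density at 2 times the genome mean or more there were 2424 WT-only peaks, a rho of 0.627, 769 genes in WT alone and 1344 WT-only peaks found in the KO DMSO list. Fewer peaks enter each of these settings. Asking for 50% overlap, allowing a gap of 1 kb, leaving lengths out, other gene windows and, added after seeing the data, an input density under 2 moved no value beyond the margin. At WT-only peaks the median input was 1.00 tag and the median fold 8.18, so the fold there rests on very few input tags.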

Other observations

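The balance of the lists varied between chromosomes. KO peaks outnumbered WT peaks 1.54 times over chromosomes 1 to 19, from 1.29 times on chromosome 16 to 1.72 times on chromosome 13. Chromosome 16 also had the highest share of WT-only peaks, 58.5%, and chromosome 13 the lowest, 44.5%. Chromosomes 11 (1.35) and 3 (1.38) followed chromosome 16 at the low end. Other simple repeats differed between the lists too. The GA repeat of 10 units was present in 4.71% of WT-only, 1.41% of KO-only and 2.17% of all windows of chromosomes 1 to 19, while a run of 20 A or T was present in 1.28%, 2.28% and 1.31%.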
